A study of Mus musculus with 4 samples.

Results

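The GTPases of immunity-associated proteins (GIMAPs) are a vertebrate family of GTP-binding proteins expressed mainly in lymphocytes, and their mRNA levels were followed here through resting, dividing and specialised splenic B and CD4+ T cells of mice. The members are the 8 mouse genes Gimap1, Gimap3, Gimap4, Gimap5, Gimap6, Gimap7, Gimap8 and Gimap9, chosen by symbol from the 32285 genes of the count matrices. All 8 were detected in both libraries.

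The cells came from spleens of C57BL/6NRj mice. KO mice lack Il2rb, the beta chain of the IL-2 and IL-15 receptors, in their B cells, and the control mice carry Cre. Spleens of both genotypes were taken at day 4 after sheep red blood cells were injected into the peritoneum, or without immunization (day 0). The 4 groups were KO day 4, control day 4, KO day 0 and control day 0; each is 1 hashtagged pool in a B cell library and 1 in a CD4+ T cell library, so no difference between groups has a replicate check and no test across groups was made. The labels give 1 and the same genotype text for KO and control, so genotype follows the hashtag text, where the controls are called Cre. The Cre acts in B cells, so the T cells are not themselves targeted. The B cells were isolated magnetically with a B cell kit and the T cells with a naive CD4+ T cell kit. How many mice made up a pool, and their age and sex, is not given in the sources at hand.

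GIMAP proteins share a GTP-binding domain first described in a plant defence protein, and several are anchored to membranes inside the cell. They are known for keeping resting lymphocytes alive. Mice without Gimap1 in lymphocytes lose mature B and T cells, and loss of Gimap5 causes lymphopenia in rats and mice. Gimap3 is the closest relative of Gimap5, Gimap4 is linked to the pace of T cell death, and Gimap6 binds the autophagy protein GABARAPL2. Human GIMAP7 activates the GTPase of other members by pairing with them, and Gimap8 is a large member with several GTP-binding domains.

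The 8 genes lie side by side on mouse chromosome 6 of GRCm38 (mm10), from base 48647234 to base 48770851, a stretch of 123.6 kb in GENCODE vM21. Their order is Gimap8, Gimap9, Gimap4, Gimap6, Gimap7, Gimap1, Gimap5 and Gimap3, and Gimap6 and Gimap3 are read from the minus strand. The antisense gene Gimap1os overlaps Gimap1, and the annotation also holds a readthrough gene, Gm28053, that overlaps Gimap7, Gimap1 and Gimap5 and is not among the genes of the matrices. Among the 28 pairs of members, Gimap3 and Gimap5 were the 1 pair with identical stretches of 50 bases in their exons. They shared 190 such stretches, 7.52% of those of Gimap3. Where these stretches lie and how many reads of the 5′ libraries fall in them was not examined. The extent to which the split of reads between these genes is uncertain is therefore not known.

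The 250 bases before the start of transcription are shown for the 4 members on which the results in T cell subsets turn most. They are from RefSeq on GRCm38.p6, written 5′ to 3′ on the strand of the gene, and all 8 members matched the RefSeq table. Capitals mark the ETS motif GGAAGT and the RUNX motif TGTGGT on either strand, the second appearing as ACCACA where it lies on the other strand.
Gimap4, chr6:48684328-48684577, strand +: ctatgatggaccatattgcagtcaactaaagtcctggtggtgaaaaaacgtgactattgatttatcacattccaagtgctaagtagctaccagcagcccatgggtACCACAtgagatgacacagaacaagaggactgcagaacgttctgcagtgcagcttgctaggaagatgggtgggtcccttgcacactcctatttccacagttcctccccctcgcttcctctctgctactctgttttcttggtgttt
Gimap5, chr6:48745947-48746196, strand +: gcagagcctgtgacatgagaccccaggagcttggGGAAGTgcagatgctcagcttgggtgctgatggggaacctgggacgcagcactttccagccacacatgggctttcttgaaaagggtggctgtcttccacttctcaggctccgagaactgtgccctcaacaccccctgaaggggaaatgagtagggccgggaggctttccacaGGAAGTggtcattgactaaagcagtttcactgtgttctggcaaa
Gimap6, chr6:48708245-48708494, strand -: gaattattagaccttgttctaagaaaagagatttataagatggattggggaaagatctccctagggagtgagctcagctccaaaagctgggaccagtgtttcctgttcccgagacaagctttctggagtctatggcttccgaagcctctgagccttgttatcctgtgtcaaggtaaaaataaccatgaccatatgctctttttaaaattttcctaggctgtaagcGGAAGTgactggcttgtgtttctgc
Gimap7, chr6:48718371-48718620, strand +: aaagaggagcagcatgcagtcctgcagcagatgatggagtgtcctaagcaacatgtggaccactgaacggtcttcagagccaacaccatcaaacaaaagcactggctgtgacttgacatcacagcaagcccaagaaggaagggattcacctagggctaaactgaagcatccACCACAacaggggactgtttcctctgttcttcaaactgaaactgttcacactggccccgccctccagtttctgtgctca

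Among 32851 such windows of all genes, 19.7% held the ETS letters and 14% held the RUNX letters. The ETS motif was in the windows of Gimap5 and Gimap6, and the RUNX motif was in those of Gimap1, Gimap4 and Gimap7. The KLF motif CCACACC, which can overlap the RUNX letters, was in the window of Gimap3 and in 6.52% of all windows. Gimap8 has a pair of start sites, and neither window held any of the 3 motifs. A match describes these letters only.

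The B library held 5477 cells that carried 1 hashtag, 5262 of them with B lineage markers. The T library held 7636, of which 7320 had T lineage markers. Median depth per pool was 4501 to 6198 unique molecular identifiers (UMIs) per cell, and a pool summed to between 4749526 and 20482212 UMIs. Some 84 barcodes, 57 of them with 1 hashtag, occurred in both libraries. Subset names below stand for gates on marker genes. Markers kept out of the gates were higher in their own subset than in the rest of the lineage for every subset, except Bcl6 in germinal center B cells and Cr2 in follicular B cells. Il2rb itself had 4 UMIs in KO day 4, 9 in control day 4, 0 in KO day 0 and 0 in control day 0 B cells, too few in the controls for the deletion to be checked. Levels are in CPM, a scale on which the UMIs of all genes add up to the same total in every sum, with an exact 95% Poisson interval, and ratios have an exact 95% binomial interval. Both cover counting error only. Since each UMI marks the 5′ end of 1 transcript whatever its length, each gene is compared with itself across cells and the genes are not ranked against each other. Fewer expressing cells and less RNA per cell cannot be told apart in such sums.

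The family as a whole was higher in CD4+ T cells than in B cells. The 8 genes summed to 2316 CPM in T-lineage cells and 1541 in B-lineage cells, a ratio of 1.503 (1.49 to 1.52). By pool the sums were 2245 in KO day 4, 2221 in control day 4, 2511 in KO day 0 and 2637 in control day 0 T cells. In B cells they were 1499 in KO day 4, 1387 in control day 4, 1678 in KO day 0 and 1774 in control day 0. The lowest T cell pool lay above the highest B cell pool. A gene was counted as past the fold at a ratio of 0.8 or less, or at the inverse of it or more, where its UMIs in the 2 sums came to at least 100. By that rule 5 of the 8 members were higher in T cells, where 25.3% of 11554 genes were, and 0 were lower, where 34.0% were. Lineage and library cannot be told apart in this comparison.

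In resting cells some members were higher in T cells and others in B cells, and here too lineage and library cannot be told apart. Naive T cells and follicular B cells are the recirculating resting cells of each lineage, here 5140 and 2672 cells. Gimap3, the closest relative of Gimap5, had 491 CPM in naive T cells and 221 in follicular B cells, a ratio of 2.22 (2.14 to 2.31). Gimap4, linked to the pace of T cell death, had 444 in naive T cells and 271 in follicular B cells, a ratio of 1.64 (1.58 to 1.70). Gimap9 had 124 in naive T cells and 87.3 in follicular B cells. Those 3 members lay past the fold on the T side.

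On the B side were Gimap1, Gimap5 and Gimap7. Gimap1, which mature B and T cells need, had 235 CPM in naive T cells and 353 in follicular B cells, a ratio of 0.664 (0.640 to 0.689). Gimap5 had 89.8 in naive T cells and 118 in follicular B cells, a ratio of 0.762 (0.716 to 0.811). Gimap7 had 76.7 in naive T cells and 128 in follicular B cells, a ratio of 0.599 (0.562 to 0.637). Of all 10254 genes tested in this contrast, 21.4% were higher and 39.8% lower in naive T cells. With 3 of the 8 members lower, the count on the B side lay near the share of all genes. Gimap6, the GABARAPL2 partner, stayed within the fold with 639 in naive T cells and 535 in follicular B cells, and so did Gimap8 with 154 in naive T cells and 144 in follicular B cells. Under the other scaling, which left out mitochondrial, ribosomal and antigen receptor genes, Gimap6 was past the fold on the T side with a log2 ratio of 0.40. Gimap5 was no longer past it on the B side, at -0.25, so that 4 members were higher and 2 lower, where 27.4% and 30.5% of all genes were. Gimap3 and Gimap5 had ratios on opposite sides of 1 under both scalings, and any reads within their shared stretches cannot be assigned between them.

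Among T cells, effector regulatory cells had the highest summed level in CPM of the gates with at least 100 cells. Under the other scaling the sum relative to naive T cells was slightly higher in innate-like than in effector regulatory cells. Regulatory T cells carry Foxp3, and the effector gate holds those in which tissue and activation genes such as Icos and Klrg1 outweigh homing genes such as Ccr7. The sum was 3314 CPM (3219 to 3411) in 227 effector regulatory cells, against 2253 (2235 to 2270) in naive T cells. In all, 7 of the 8 members were past the fold upwards, where 44.5% of all genes tested were, and the median log2 ratio was 0.53 for the members and 0.25 for all genes. When mitochondrial, ribosomal and antigen receptor genes were left out of the total, the median of all genes in this contrast moved to -0.04, and 3 members, Gimap4, Gimap5 and Gimap7, were past the fold upwards, where 24.5% of all genes were, and Gimap6 was past it downwards, where 29.7% were. The counts of members in each T cell gate are therefore given under both scalings.

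Gimap7 showed the widest range. It had 337 CPM in KO day 4, 405 in control day 4, 320 in KO day 0 and 220 in control day 0 effector regulatory cells. Naive T cells of the same pools had 69.0 in KO day 4, 71.2 in control day 4, 96.2 in KO day 0 and 89.0 in control day 0. The 2 sets of pools did not overlap, and the pooled ratio was 4.60 (4.16 to 5.08), a log2 ratio of 2.20, or 1.91 under the other scaling. The ratio was 4.89 to 5.68 within the 2 pools with enough cells for both gates. After thinning every cell to 1500 UMIs, Gimap7 was found in 35.4% (29.2 to 42.1) of effector regulatory cells and 10.7% (9.85 to 11.6) of naive T cells, whose median depths before thinning were 5099 and 5133 UMIs. Without thinning the shares were 68.7% in effector regulatory and 28.6% in naive T cells. In 11 cells of the B library with neutrophil or erythroid markers no member was found after thinning, which allows a share of up to 28.5% for Gimap7, at a median depth of 41505 UMIs before thinning.

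Resting regulatory cells, in which the homing genes prevail, lay between. Their Gimap7 level was 183 CPM, 2.38-fold (2.13 to 2.67) that of naive T cells, and higher than in naive T cells in all 4 pools, by 1.47 to 2.77 times. Gimap3, Gimap5 and Gimap7 were past the fold there and none was lower, where 19.9% of all genes were higher and 13.1% lower. Under the other scaling Gimap3 was no longer past the fold, with a log2 ratio of 0.30. That left 2 members higher, where 16.2% of all genes were, and none lower, where 15.8% were. Gimap6 did not share the pattern. It had 660 in resting regulatory, 579 in effector regulatory and 639 in naive T cells, and the small excess in resting regulatory cells (log2 0.05) turned to -0.01 under the other scaling.

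**Figure D1:**
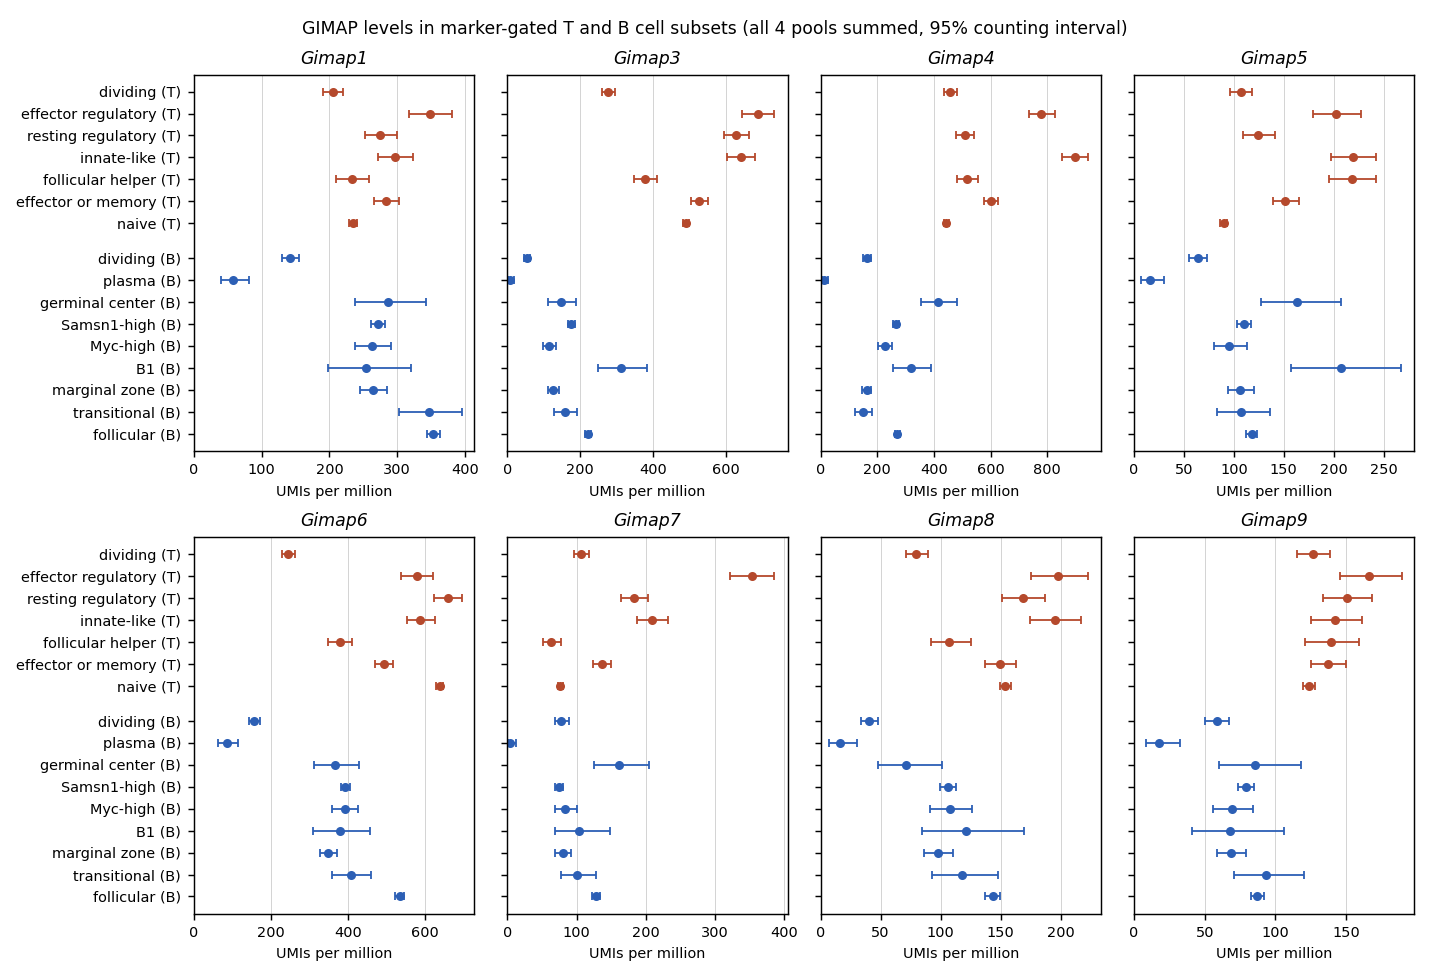
Level of each GIMAP gene in marker-gated T (red) and B (blue) cell subsets. The horizontal axis is CPM with all 4 pools summed, points are the levels, bars are 95% counting intervals, and each panel has its own scale from 0. Gimap7 reaches 353 CPM in effector regulatory T cells, and all 8 genes lie low in plasma cells.

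Innate-like T cells, gated on the NK cell and NKT cell genes Nkg7, Klrd1, Klrb1c and Zbtb16, had a summed level of 3188 CPM (3104 to 3273) in 281 cells. Its interval overlapped that of effector regulatory cells. Gimap4 reached its highest level of all gates here, with 928 CPM in KO day 4, 787 in control day 4, 852 in KO day 0 and 1053 in control day 0. Naive T cells had 433 in KO day 4, 425 in control day 4, 466 in KO day 0 and 493 in control day 0, so the gates did not overlap in Gimap4. The ratio was 2.02 (1.92 to 2.13), a log2 ratio of 1.01, or 0.81 under the other scaling. Gimap5 was 2.44-fold (2.18 to 2.72) and Gimap7 2.72-fold (2.43 to 3.04) that of naive T cells. In all, 6 members were past the fold, where 35.2% of genes were, and Gimap9 was not, with a log2 ratio of 0.20 that became -0.01 under the other scaling. Under that scaling 3 members, Gimap4, Gimap5 and Gimap7, were past the fold upwards, where 19.8% of all genes were, and Gimap6 downwards, where 23.9% were.

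Follicular helper T cells, which help germinal center B cells and here came almost wholly from the day 4 pools, had a distinct profile. Gimap5 had 244 CPM in KO day 4 and 194 in control day 4 follicular helper cells, against 85.0 in KO day 4 and 86.8 in control day 4 naive T cells. The ratio over all pools was 2.43 (2.16 to 2.72), with 1.28 on the log2 scale and 1.04 under the other scaling. The other members went the opposite way or stayed close. Gimap6 had 383 in KO day 4 and 353 in control day 4 follicular helper cells, against 625 in KO day 4 and 597 in control day 4 naive T cells, a ratio over all pools of 0.594 (0.546 to 0.645). Gimap3 and Gimap8 were also lower past the fold, at ratios of 0.771 (0.708 to 0.838) and 0.698 (0.594 to 0.815). So 1 member was higher, where 39.6% of all genes were, and 3 were lower, where 22.2% were. Gimap4 and Gimap9 were nominally higher at log2 0.22 and 0.17, and turned to -0.02 and -0.07 under the other scaling. That scaling left 1 member higher and put 4 lower, Gimap7 among them, where 25.4% of all genes were higher and 33.8% lower. Gimap7 had 63.8 CPM (51.8 to 77.7) in these cells, with an interval that overlapped that of naive T cells.

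Effector or memory T cells, gated on S100a4, Ccl5, Cxcr3 and Itgb1, differed less. There, 3 members, Gimap4, Gimap5 and Gimap7, were higher past the fold at ratios of 1.35 to 1.78, and Gimap6 was lower at 0.774 (0.736 to 0.813). Of all genes tested, 38.6% were higher and 12.6% lower. The median log2 ratio was 0.21 for the members and 0.20 for all genes. Gimap3 (log2 0.10) and Gimap9 (log2 0.15) changed sign to -0.12 and -0.07 under the other scaling. Under that scaling Gimap4 was no longer past the fold, at 0.22. That left 2 members higher and 1 lower, where 20.2% and 22.7% of all genes were. The order of Gimap6 ran from resting regulatory and naive cells, whose intervals overlapped, through innate-like and effector regulatory cells, which overlapped too, to effector or memory, follicular helper and dividing cells.

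In dividing cells the family took a smaller share of the mRNA in both lineages. Dividing cells were gated on Mki67, Top2a, Birc5 and Pclaf, and they came mostly from day 4, with 105 KO and 76 control cells of 201 dividing T cells and 55 KO and 52 control cells of 130 dividing B cells. The sum was 1605 CPM (1563 to 1647) in dividing T cells and 2253 in naive T cells, a ratio of 0.712 (0.693 to 0.732). It was 758 (728 to 788) in dividing B cells and 1857 (1835 to 1879) in follicular B cells, a ratio of 0.408 (0.391 to 0.425). Counted per cell the order was the reverse. A dividing T cell held on average 28.4 GIMAP UMIs and a naive T cell 12.1, and a dividing B cell held 19.1 and a follicular B cell 10.0. The median depth was 14747 UMIs in dividing and 5133 in naive T cells, and 21750 UMIs in dividing and 4949 in follicular B cells. The dividing gate was taken before the plasma cell gate. At day 4, 16 of the 55 KO and 20 of the 52 control dividing B cells were high in Jchain and Xbp1. Without these cells the sum was 1141 CPM in KO and 989 in control dividing B cells, against 908 and 661 with them. Follicular B cells had 1754 in KO day 4 and 1726 in control day 4.

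The members were unequally lower in dividing cells. Gimap6 had 258 CPM in KO day 4 and 210 in control day 4 dividing T cells, against 625 in KO day 4 and 597 in control day 4 naive T cells, a ratio over all pools of 0.384 (0.359 to 0.411). Gimap6 was also low in dividing B cells, with 173 in KO day 4 and 140 in control day 4, against 501 in KO day 4 and 494 in control day 4 follicular B cells, a ratio over all pools of 0.293 (0.268 to 0.321). Gimap8 had ratios of 0.519 in T and 0.279 in B cells, and Gimap3 had 0.563 in T and 0.245 in B cells.

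Other members were closer to their resting level. In dividing T cells Gimap7 was 1.39-fold (1.24 to 1.55) that of naive T cells, a log2 ratio of 0.48 that was 0.16 under the other scaling and no longer past the fold, and Gimap4, Gimap5 and Gimap9 had log2 ratios of 0.04, 0.25 and 0.03 that became -0.27, -0.06 and -0.28 under the other scaling. In dividing B cells Gimap4, Gimap7 and Gimap9 had ratios of 0.607, 0.611 and 0.669. All 8 members were past the fold downwards in dividing B cells, where 38.2% of all genes tested were, and 30.3% of all genes were higher. In dividing T cells 3 were lower and 1 higher, where 25.3% of all genes were lower and 41.2% higher. Under the other scaling 4 were lower, Gimap1 among them, and 0 higher, where 40.7% of all genes were lower and 25.6% higher. After thinning, 33.1% (25.1 to 41.9) of dividing B cells showed no member, against 7.40% (6.44 to 8.46) of follicular B cells. For T cells the shares were 6.97% (3.86 to 11.4) of dividing and 4.81% (4.25 to 5.44) of naive cells. The dividing B cells in these values include the cells high in Jchain and Xbp1.

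**Figure D2:**
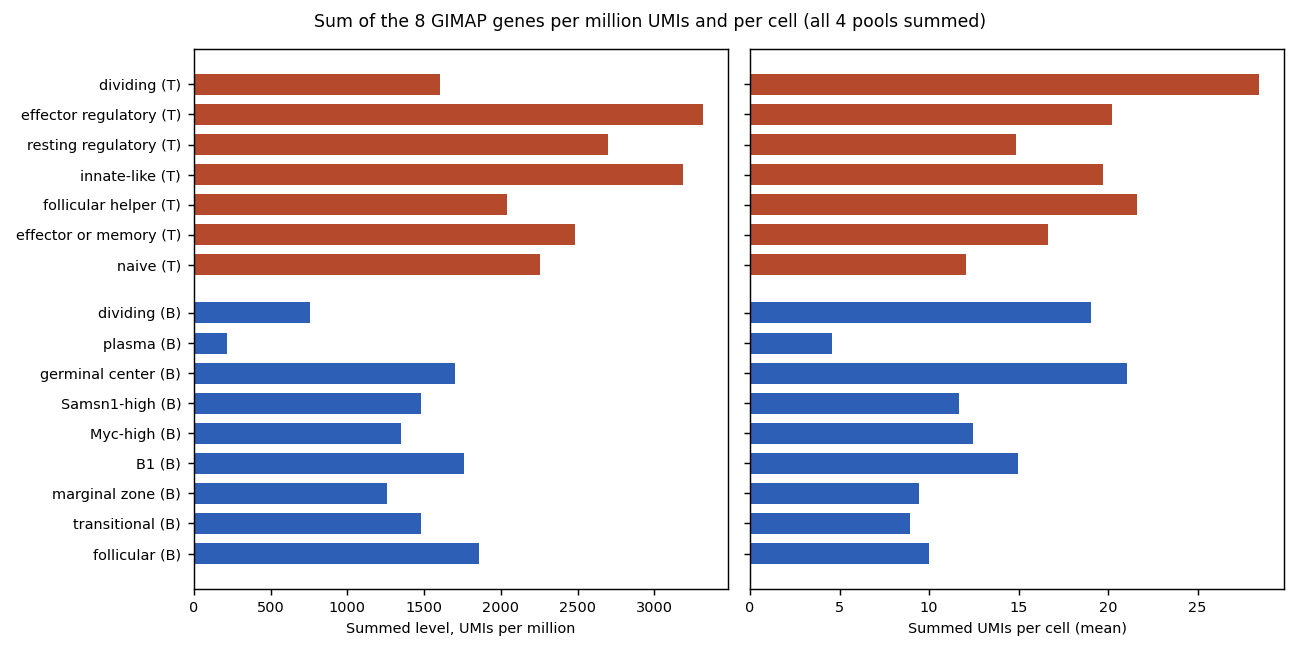
Sum of the 8 GIMAP genes in T (red) and B (blue) cell subsets, all pools summed, as CPM (left) and as mean UMIs per cell (right). Dividing cells of both lineages lie below resting cells in CPM and above them per cell, and plasma cells are low on both scales.

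Plasma cells, which secrete antibody, had the least GIMAP mRNA among the B cell gates. The sum was 216 CPM in 27 cells, a ratio of 0.116 (0.0967 to 0.139) to follicular B cells, with 4.56 UMIs per plasma cell and 10.0 per follicular B cell. Each pool held 5 to 10 such cells, with sums of 306 in KO day 4, 176 in control day 4, 262 in KO day 0 and 185 in control day 0. All 8 members were lower past the fold, as were 84.8% of all genes, while 6.91% were higher, with a median log2 ratio of -1.46 that became -0.64 when mitochondrial, ribosomal and receptor genes were left out of the total. Immunoglobulin transcripts are among those left out. The median over the members was -3.04 and their sum had a log2 ratio of -3.10, or -2.28 under the other scaling.

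The other B cell gates lay between. Marginal zone B cells, which stay in the spleen and meet blood-borne antigen, summed to 1255 CPM (1212 to 1300) in 336 cells, a ratio of 0.676 (0.651 to 0.701) to follicular B cells. The ratio was 0.589 to 0.750 within the 4 pools. There, 7 members were lower past the fold, where 23.9% of all genes were, and Gimap5 was not, at 0.903 (0.791 to 1.03). Gimap9 was no longer past it under the other scaling, which left 6 lower, where 17.2% of all genes were. Gimap3 had 126 and Gimap4 had 162 CPM in marginal zone cells, against 221 and 271 in follicular cells.

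Samsn1-high B cells made up 35.6% of the KO day 4 and 31.2% of the control day 4 B-library cells, against 2.36% of the KO day 0 and 2.31% of the control day 0 cells. Their sum was 1479 CPM (1454 to 1504), a ratio of 0.797 (0.780 to 0.813) to follicular B cells. Gimap7 was the member furthest from follicular B cells, with 75.0 in Samsn1-high and 128 in follicular cells, while Gimap4 had 267 in Samsn1-high and 271 in follicular cells. In Samsn1-high cells 5 members were lower past the fold, where 16.6% of all genes were, and 0 higher, where 7.25% were. The other scaling left 4 lower, where 15.4% of all genes were. Set against follicular cells of the same pool the ratio of the sum was 0.844 in KO day 4 and 0.843 in control day 4. That of Gimap7 was 0.618 in KO day 4 and 0.644 in control day 4. Within either pool fewer members were past the fold than over all pools, with no share of all genes at hand for these contrasts. Myc-high B cells, a gate on recently activated cells, had 6 members lower, where 22.3% of all genes were. The count was 5 under the other scaling, where 19.9% of all genes were lower. With gates on thinned UMIs the direction of Gimap3 and Gimap6 in Myc-high cells turned, to log2 ratios of 0.29 and 0.062. Transitional B cells, the newest arrivals from bone marrow, had 4 members lower, where 18.7% of all genes were. With the other scaling 5 were lower, Gimap8 among them, where 23.2% of all genes were. Gimap4 had 148 CPM (120 to 181) in transitional cells, with an interval that overlapped those of marginal zone and dividing B cells.

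Germinal center B cells (34 cells) and B1 B cells (33 cells) were few. Gimap4 had 415 CPM (356 to 481) in germinal center cells and 271 in follicular cells, a ratio of 1.53 (1.31 to 1.78). Gimap8 had 71.1 in germinal center cells and 144 in follicular cells, a ratio of 0.496 (0.334 to 0.710). In germinal center cells 3 members were higher and 3 lower, where 22.0% and 37.5% of all genes were. Among the 3 higher, Gimap5 had log2 ratios of -0.29 with gates on thinned UMIs and -0.0013 after thinning, and Gimap7 had -0.73 after thinning. Gimap5 had 207 (157 to 268) and Gimap3 311 (249 to 383) in B1 cells, above follicular cells with 118 and 221. In B1 cells 2 members were higher and 3 lower, where 23.0% and 36.1% of all genes were.

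The summed GIMAP level in resting cells of both lineages was lower at day 4 after immunization than without it (day 0). In follicular B cells all 8 members had a ratio of day 4 over day 0 below 1 in KO, where 57.6% of all genes did, and all 8 in controls, where 68.2% did. The sum had a ratio of 0.902 (0.872 to 0.932) in KO and 0.863 (0.833 to 0.894) in controls. In naive T cells the ratio of the sums was 0.881 (0.863 to 0.901) in KO and 0.849 (0.827 to 0.872) in controls, with 7 of 8 members below 1 in KO and 8 of 8 in controls, where 49.5% and 63.3% of all genes were. The members are neighbours in the genome and were measured in the same cells, so 8 members are not 8 independent observations. The contrasts between days and between genotypes share pools.

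Few of these day differences passed the fold. Gimap7 was the member with the lowest ratio in naive T cells. It had 69.0 CPM in KO day 4 and 96.2 in KO day 0, a ratio of 0.718 (0.640 to 0.806), and 71.2 in control day 4 and 89.0 in control day 0, a ratio of 0.80007 (0.692 to 0.927), just inside the fold. Gimap3 had 450 in KO day 4 and 570 in KO day 0, a ratio of 0.789 (0.753 to 0.826). Those were the 2 members past the fold in naive KO cells, where 6.6% of all genes were lower and 6.95% higher. In naive control cells 0 members were, where 14.5% of all genes were lower and 6.24% higher.

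In follicular B cells Gimap7 had 125 CPM in KO day 4 and 141 in KO day 0, a ratio of 0.882. In controls it had 104 at day 4 and 140 at day 0, a ratio of 0.743 (0.644 to 0.856). Gimap7 was the 1 member past the fold in follicular control cells, where 15.2% of all genes were lower and 3.82% higher. In KO 0 members were, where 7.74% of all genes were lower. Gimap1 had 323 in control day 4 and 393 in control day 0 follicular cells, a ratio of 0.822 (0.757 to 0.892).

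**Figure D3:**
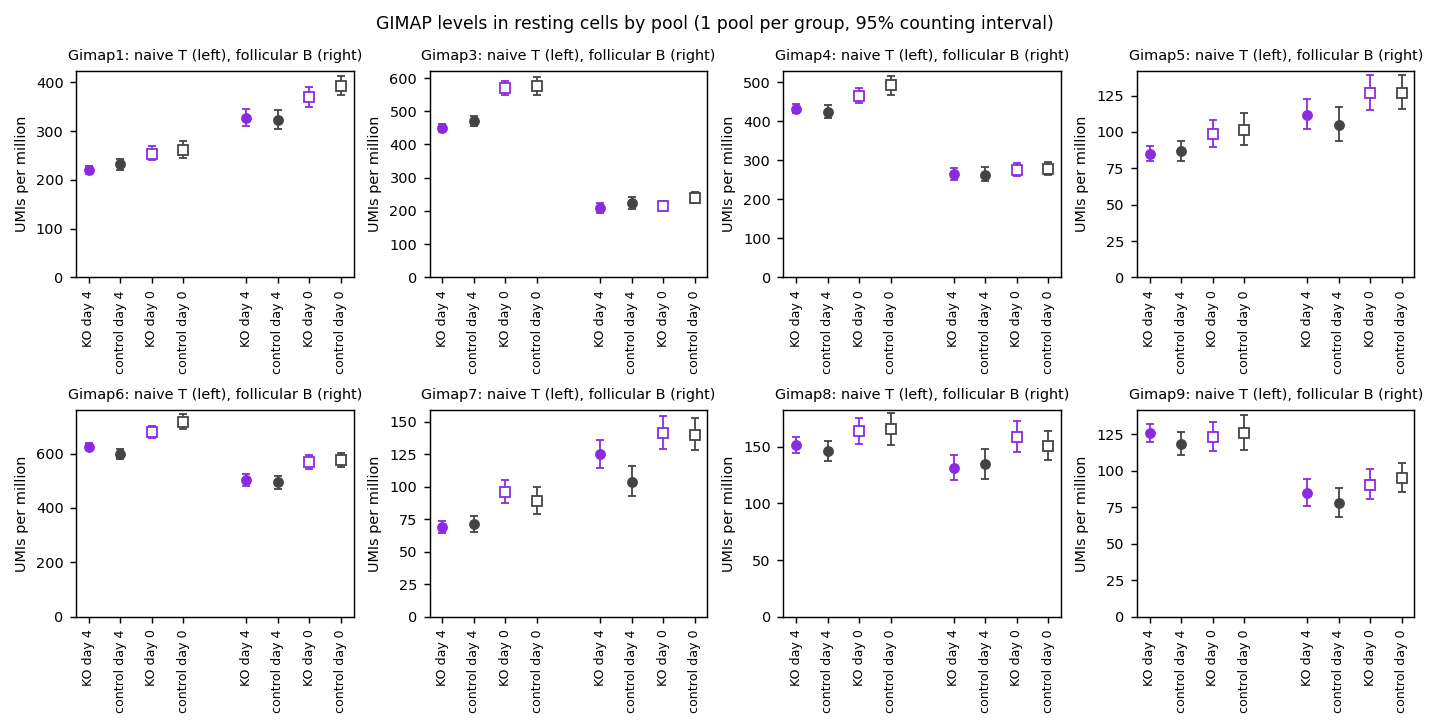
Level of each GIMAP gene in naive T cells (left in each panel) and follicular B cells (right) of the 4 pools. The vertical axis is CPM from 0, bars are 95% counting intervals, purple is KO, grey is control, filled circles are day 4 and open squares are day 0. Gimap3 and Gimap4 lie higher in naive T cells in every pool, Gimap1 and Gimap7 in follicular B cells.

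Over all B-lineage cells the day difference was larger in controls. The sum of the family had a ratio of 0.893 (0.872 to 0.915) in KO and 0.782 (0.762 to 0.802) in controls. In KO 0 members were lower past the fold, where 9.52% of all genes were, and 0 higher, where 7.45% were. In controls 5 were lower, where 20.1% of all genes were, and 0 higher, where 9.65% were. The Samsn1-high and dividing gates, which lie below follicular cells, held a larger share of the cells at day 4. With the same mix of gates in every pool the log2 ratio of the sum was -0.09 in KO, against -0.16 with the mix as found, and -0.18 in controls, against -0.35 with the mix as found. Over all T-lineage cells the ratio was 0.894 (0.878 to 0.911) in KO and 0.842 (0.824 to 0.861) in controls. Gimap3 was past the fold in KO, where 5.72% of all genes were lower, and Gimap3 and Gimap6 were in controls, where 11.4% were.

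KO and control cells differed little in their GIMAP levels. In follicular B cells, from which Il2rb should be deleted, the sum was 1754 in KO day 4 and 1726 in control day 4, a ratio of 1.02 (0.981 to 1.05), and 1945 in KO day 0 and 2001 in control day 0, a ratio of 0.972 (0.941 to 1.01). In naive T cells the sum was 2160 in KO day 4 and 2148 in control day 4, a ratio of 1.01 (0.986 to 1.03), and 2451 in KO day 0 and 2529 in control day 0, a ratio of 0.969 (0.942 to 0.996). No member passed the fold in these 4 contrasts. In follicular cells 8.1% of all genes were higher and 4.38% lower in KO at day 4, and 4.55% higher and 6.9% lower at day 0. In naive T cells 5.48% were higher and 3.62% lower in KO at day 4, and 4.93% higher and 7.89% lower at day 0.

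The largest of these differences in follicular cells was in Gimap7 at day 4, with 125 CPM in KO and 104 in control cells, a ratio of 1.20 (1.04 to 1.38). At day 0 it had 141 in KO and 140 in control cells. Over all B-lineage cells at day 4 every member was higher in KO, by 1.05 to 1.21 times, where 40.2% of all genes had a ratio below 1, and the sum had a ratio of 1.08 (1.06 to 1.10). Given the same mix of gates in each pool, that log2 ratio was 0.03, against 0.11 with the mix as found. At day 0 every member had a ratio below 1 in KO B cells, where 55.9% of all genes did, with a ratio of the sums of 0.946 (0.920 to 0.973). No member passed the fold at either day, where 5.73% of all genes were higher and 5.02% lower at day 4, and 4.78% higher and 6.26% lower at day 0. In T-lineage cells the sum had a KO to control ratio of 1.01 (0.996 to 1.03) on day 4 and one of 0.952 (0.929 to 0.975) on day 0, again with 0 members past the fold. Of all genes, 3.84% were higher and 4.43% lower at day 4, and 5.26% higher and 6.45% lower at day 0.

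**Figure D4:**
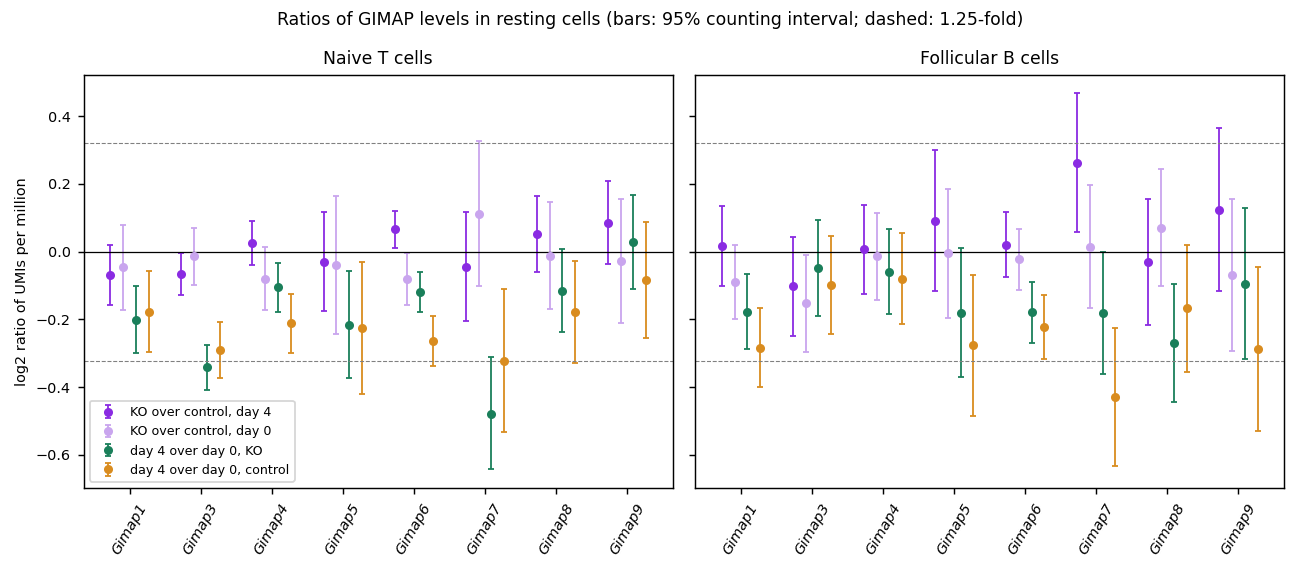
Log2 ratios of each GIMAP gene in naive T cells (left) and follicular B cells (right) for KO over control at day 4 and day 0 and for day 4 over day 0 in KO and control. Points are ratios of CPM, bars are 95% counting intervals and dashed lines mark the fold used for counting. Ratios of KO to control lie near 0 and nearly all ratios of day 4 to day 0 lie below it.

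Among the day 4 gates compared, dividing B cells showed the largest difference between genotypes in the summed level. The sum was 908 CPM in 55 KO cells and 661 in 52 control cells, a ratio of 1.37 (1.26 to 1.495), and 6 of 8 members were higher past the fold, where 13.8% of all genes were, and 0 lower, where 14.1% were. Gimap3 had 76.1 in KO and 42.2 in control cells, and Gimap5 had 85.2 in KO and 50.04 in control cells. The direction of both depended on the processing, with a log2 ratio of -1.08 for Gimap5 after thinning and -0.038 for Gimap3 without the 1% of cells with the most UMIs. Other features of these cells also differed between KO and control. Jchain, the joining chain of secreted antibody, had 1695 CPM in KO and 3395 in control cells, and the myeloid granule gene Mpo had 0 in KO and 435 in control cells. Without the 16 KO and 20 control cells high in Jchain and Xbp1 the log2 ratio of the sum was 0.21, and without the 3 KO and 5 control cells with myeloid markers it was 0.23, against 0.46 with all cells. It was 0.09 without the 1% of cells with the most UMIs. The exclusions by markers were chosen after seeing the data, and the part of these cells in the difference was not tested.

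Among day 4 T cells the same contrast gave sums with ratios of 1.03 (0.970 to 1.09) in dividing, 1.02 (0.970 to 1.07) in effector or memory, 1.07 (0.993 to 1.15) in follicular helper and 1.05 (0.979 to 1.12) in innate-like cells. Effector regulatory cells had 3168 in KO and 3471 in control cells, a ratio of 0.913 (0.856 to 0.973). Gimap5 in innate-like cells had 199 in KO and 285 in control cells, a ratio of 0.699 (0.552 to 0.886), and was the 1 member past the fold there, where 10.4% of all genes were lower and 10.3% higher. Gimap5 went the other way in effector or memory cells, with 176 in KO and 131 in control cells, a ratio of 1.34 (1.10 to 1.63), and in follicular helper cells, with 244 in KO and 194 in control cells, a ratio of 1.26 (1.01 to 1.58).

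In effector or memory cells Gimap7 and Gimap8 were lower past the fold in KO at 0.769 (0.626 to 0.945) and 0.788 (0.649 to 0.956), so 1 member was higher, where 11.6% of all genes were, and 2 lower, where 6.29% were. In follicular helper cells Gimap5 was the 1 member past the fold among the 7 with enough UMIs, where 11.5% of all genes were higher and 7.74% lower, and under the other scaling 0 were. Gimap5 was lower in effector regulatory cells at 0.780 (0.597 to 1.02), where 11.3% of all genes were lower and 9.43% higher. Gimap8 was higher in resting regulatory cells at 1.26 (0.952 to 1.68), where 12.5% of all genes were higher and 6.52% lower, and 0 members were past the fold there under the other scaling. The interval of neither ratio excluded 1. In dividing T cells 0 members were past the fold, where 12.7% of all genes were higher and 6.71% lower. In marginal zone B cells Gimap9 was past it upwards, at 1.44 (0.943 to 2.22), where 14.6% of all genes were higher and 6.71% lower. In Samsn1-high B cells 0 were, where 8% of all genes were higher and 3.95% lower.

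The members did not move as 1 unit across the gates. Over the 15 sums of a B gate and a pool with at least 30 cells, the Pearson correlation of log2 levels ran from 0.32 for Gimap7 and Gimap9 to 0.98 for Gimap1 and Gimap8, with a median of 0.61 over the 28 pairs. Over 23 such T cell sums it ran from -0.08 for Gimap5 and Gimap6 to 0.90 for Gimap3 and Gimap8, with a median of 0.53. These sums share cells and libraries, and they describe the gates. Among the genes whose profile was most like the summed family in B cells were Cd55, a complement regulator, at 0.98, and Samd9l, an interferon-induced gene, at 0.98. In T cells they were H2-K1, an MHC class I heavy chain, at 0.94, H2-Q7 at 0.91, Ier5 at 0.91, H2-Q6 at 0.91 and B2m, the MHC class I light chain, at 0.89.

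Genes of related function were read in the same contrasts. Of the quiescence and homing genes of resting lymphocytes, 12 of 13 tested were lower past the fold in dividing B cells, with a median log2 ratio of -1.61 where that of all genes was -0.09. Klf2, a transcription factor of quiescent lymphocytes, had 156 CPM in dividing and 774 in follicular B cells. In dividing T cells 14 of 15 were lower, with a median of -0.99 where that of all genes was 0.16, and Il7r, the receptor for the survival cytokine IL-7, had 57.3 in dividing and 394 in naive T cells. In effector regulatory T cells 11 of 15 of these genes were lower, where 16.7% of all genes were, and 0 higher, where 44.5% were. Ccr7, a homing receptor for lymphoid tissue, had 31.8 there and 333 in naive T cells.

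The interferon-induced GTPases, a separate family of immune GTPases, were higher in effector regulatory T cells for 14 of 16 genes tested and lower for 1, with a median log2 ratio of 1.05. Of all genes in that contrast 44.5% were higher and 16.7% lower, with a median of 0.25. Under the other scaling 13 of the 16 were higher, with a median of 0.76, where 24.5% of all genes were, with a median of -0.04. Iigp1 had 117 CPM in effector regulatory and 31.6 in naive T cells, while Tgtp1 had 17.4 in effector regulatory and 48.2 in naive T cells. In follicular helper cells 3 were higher and 9 lower, where 39.6% and 22.2% of all genes were. Among the partner and survival genes, 10 of 15 were higher and 2 lower in effector regulatory cells, where 44.5% and 16.7% of all genes were. Under the other scaling 8 were higher and 2 lower, where 24.5% and 29.7% of all genes were. Gabarapl2, which encodes the partner of Gimap6, had 218 CPM in effector regulatory and 137 in naive T cells, and the survival gene Bcl2 had 50.6 in effector regulatory and 233 in naive T cells. Between days, Il7r in naive T cells had ratios of day 4 over day 0 of 0.767 in KO and 0.622 in controls.

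Markers of other cell types were present within the gated lineages. The erythroid list summed to 626 CPM in KO day 4 B cells and to between 0.779 and 2.40 in the other B pools, and to between 2.53 and 1381 in the T pools. The monocyte or macrophage list summed to between 59.6 and 181 in B pools and between 30.1 and 44.0 in T pools, with 0 of its 4 genes at 0. NK markers were at 0 for 3 of 3 genes in KO day 4 and control day 4 B cells. The part of these RNAs in the differences of a few percent between pools was not tested.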

How the data were processed

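Single-cell 5′ RNA libraries (10x Genomics, V2) of splenic B cells and CD4+ T cells were analysed, with hashtag libraries that mark 4 pools in each. The deposited matrices hold raw counts of UMIs per gene and cell, made by the authors with Cell Ranger 5.0.0 on mm10, per the submitters' processing notes. The counts of hashtag oligonucleotides were deposited in the same form. Which annotation release they used is not stated in the sources at hand. GENCODE vM21 matched 32158 of 32285 gene identifiers (99.61%).

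Barcodes needed 200 genes or more and a mitochondrial share of 10% or less, which left 6218 of 6339 B cell barcodes and 9196 of 9307 T cell barcodes. HTODemux (Seurat 5.3.0, R 4.3.3, positive quantile 0.99) gave 5477 and 7636 cells with 1 hashtag. Cells with several hashtags, 568 and 1007, were left out as doublets, and those with none, 173 and 553, were left out too. Groups followed the hashtag text. Lineage and subset gates were minimum UMI numbers of marker genes, taken in a fixed order.

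UMIs were summed over the cells of a gate and pool and scaled to the total (Python 3.11.15, numpy 2.4.6, scipy 1.17.1, pandas 2.3.3). The ratio intervals were run on simulated Poisson counts. Such counts hold no spread between cells or pools, so that run checks the calculation and not the fit of the intervals to real pools. Each group is 1 pool, so no p-value was computed; cells were not used as replicates. All 8 members are named in every main comparison, and other genes come from 3 lists (up to 3 highest and 3 lowest) and from the 5 genes most like the summed family, some of which are not reported here. The members, lists and gates were chosen with earlier results of these data known. Alternatives changed the hashtag rule, cell filter, scaling, weighting of cells, depth, gates, fold and UMI minimum.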

Additional observations from a re-analysis of the deposited data

Results flagged for a closer look

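Of 80 pairs of contrasts compared for a single member, 3 had ratios on opposite sides of 1 with both counting intervals excluding 1. All 3 were differences between genotypes at the 2 days, and the difference between the days was not tested, since each group is 1 pool. On day 4, Gimap1 in the B lineage had 279 CPM in KO and 265 in control cells, a ratio of 1.05 (1.002 to 1.11). On day 0 it had 325 CPM in KO and 354 in control cells, a ratio of 0.917 (0.861 to 0.977).

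On day 4, Gimap6 in the T lineage had 570 CPM in KO and 523 in control cells, a ratio of 1.09 (1.06 to 1.12). On day 0 it had 660 CPM in KO and 693 in control cells, a ratio of 0.953 (0.909 to 0.999). In naive T cells Gimap6 had 625 CPM in KO and 597 in control cells on day 4, a ratio of 1.05 (1.01 to 1.09), and 679 in KO and 717 in control cells on day 0, a ratio of 0.946 (0.897 to 0.998). The naive cells are part of the T-lineage cells, so these are not separate observations. None of the 3 passed the fold used for counting. Under the other scaling the log2 ratio of Gimap1 in the B lineage on day 4 was 0.045, against 0.075 as reported. The day 0 log2 ratio of Gimap6 was -0.038 in the T lineage, against -0.070, and -0.039 in naive T cells, against -0.080. An interval shifts by the same factor as its ratio, so under that scaling none of the 3 keeps both intervals clear of 1.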

How the results depend on the processing

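Ratios are log2 here. No paired analysis was possible because each group is 1 pool and the pools carry no replicate numbers; for the same reason no replicate could be left out. Among the sums and counts over members, 183 alternative values kept close to the reported one, 61 moved and 0 reversed. Single-member values numbered 2018, 284 and 10. Leaving out barcodes found in both libraries or changing the hashtag rule, the cell filter or the UMI minimum moved no sum or count. For KO over control in day 4 B-lineage cells (0.11 as reported) the sum was 0.047 with gates on thinned UMIs, 0.039 as the mean of single-cell levels, 0.034 with the same mix of gates, 0.034 thinned and 0.044 without the top 1% of cells, and thinning put 1 member past the fold in place of 0. For T-lineage cells at day 4 (0.02) the mean of single-cell levels gave -0.010.

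Day 4 over day 0 in KO B-lineage cells (-0.16) was -0.088 with the same mix. In controls (-0.35) it was -0.28 with gates on thinned UMIs, -0.28 as the mean of single-cell levels, -0.18 with the same mix, -0.30 under the other scaling and -0.27 without the top 1%. In KO T-lineage cells (-0.16) it was -0.21 under the other scaling and -0.094 thinned, and in control T-lineage cells (-0.25) it was -0.20 as the mean of single-cell levels, -0.21 thinned and -0.20 without the top 1%. The count of members past the fold in KO B cells (0) was 1 as the mean of single-cell levels. In control B cells (5) it was 1 at 1.5-fold, 3 as the mean of single-cell levels and 2 with the same mix. In KO T cells (1) it was 2 with the same mix and 0 at 1.5-fold, with gates on thinned UMIs, as the mean of single-cell levels, thinned and without the top 1%. In control T cells (2) it was 0 at 1.5-fold, as the mean of single-cell levels, with the same mix and thinned, and 1 without the top 1%.

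T over B lineage (0.59) was 0.56 with gates on thinned UMIs, 0.54 as the mean of single-cell levels, 0.64 under the other scaling and 0.55 thinned, and its count (5) was 3 at 1.5-fold. Against resting cells, dividing B cells (-1.29) had -1.13 as the mean of single-cell levels, -1.17 thinned and -1.07 without the top 1%. Dividing T cells (-0.49) had -0.54 with gates on thinned UMIs, -0.38 as the mean of single-cell levels, -0.80 under the other scaling, -0.34 thinned and -0.24 without the top 1%. Effector regulatory cells (0.56) had 0.61 with gates on thinned UMIs, 0.27 under the other scaling and 0.63 thinned. Innate-like cells (0.50) had 0.61 with gates on thinned UMIs and 0.29 under the other scaling. Samsn1-high cells (-0.33) had -0.29 with gates on thinned UMIs and -0.37 thinned. Marginal zone cells (-0.56) had -0.44 with gates on thinned UMIs and -0.48 under the other scaling, and plasma cells (-3.10) had -2.28 under the other scaling. KO over control in day 4 dividing B cells (0.46) was 0.23 as the mean of single-cell levels, 0.18 thinned, 0.21 without Jchain and Xbp1 cells, 0.23 without cells with myeloid markers and 0.087 without the top 1%; the exclusions of cells by markers and of shared barcodes were chosen after seeing the data. In all, 10 single-member ratios turned round. Thinned gates gave Gimap5 in germinal center cells -0.29, Gimap3 and Gimap6 in Myc-high cells 0.29 and 0.062, and Gimap1 and Gimap9 in B1 cells 0.20 and 0.012. Thinning gave Gimap5 -0.0013 and Gimap7 -0.73 in germinal center cells, and Gimap5 -1.08 in dividing B cells of KO over control, where Gimap1 and Gimap3 gave -0.095 and -0.038 without the top 1%. The cause of these shifts was not tested. The single members in gates of 30 to 60 cells rest on few UMIs.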

Other observations

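Cells outside both lineages gave values that belong in no comparison. In the B library, 121 cells failed the lineage gate and carried markers of another lineage, and they summed to 104 GIMAP CPM, where B-lineage cells summed to 1541. The 28 such cells of the T library summed to 907 CPM, where T-lineage cells summed to 2316. The 11 B-library cells with neutrophil or erythroid markers, at a median depth of 41505 UMIs, listed Gimap4 at 1.74 and Gimap9 at 31.3 CPM and the other members at 0. Gimap9 had a UMI in 63.6% of them before thinning, and in none of them after thinning to 1500 UMIs.

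The antisense gene Gimap1os correlated with Gimap1 at 0.82 over the 15 B cell sums and at 0.44 over the 23 T cell sums. The 2 genes overlap, and no source at hand states the strand setting of the counting.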
